A study of Homo sapiens with 12 samples.

Results

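The genes described here are the 38 genes of glucose uptake, glycolysis, lactate handling and gluconeogenesis that were listed by symbol, and they were found by gene name among the 63677 rows of the deposited count table. The 38 names matched 42 rows, because TPI1, PGK1, ENO2 and PKLR each had a second identifier, and those 4 rows held no count in any sample. By step, the list holds 3 glucose transporters, 6 genes of the hexokinase and hexose phosphate steps, 4 PFKFB genes, 11 genes of triose and lower glycolysis, 4 genes of lactate handling, 4 pyruvate dehydrogenase kinases and 6 genes of gluconeogenesis. Of the 38, 36 reached 10 counts in 3 or more samples and were tested with all other genes that did so, 17092 in total. HK1 and G6PC did not pass it and are given by their counts.

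RNA was sequenced from 12 samples of Huh7, an established human hepatocellular carcinoma cell line, in 4 groups of 3. Untreated cells received medium only, and the other groups were kept for 6 h in GO (400 µg/mL), GO–Rg3 (400 µg/mL) or GO–Rg3–DOX (100 µg/mL). GO is graphene oxide, a carbon sheet used as a carrier, Rg3 is a ginsenoside from ginseng that was attached to it, and DOX is doxorubicin, a cytostatic drug that intercalates into DNA and inhibits topoisomerase II. All samples come from 1 cell line, the labels call them replicates without saying whether these were separate cultures, and p-values therefore measure only the spread between these samples. The dose of GO–Rg3–DOX differed from that of the other carriers, so its values are given beside theirs and not compared with them.

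Glycolysis splits glucose into pyruvate and yields ATP without oxygen. Hexokinase, phosphofructokinase and pyruvate kinase catalyse its committed steps, and the PFKFB enzymes make and break fructose-2,6-bisphosphate, the strongest activator of phosphofructokinase. Pyruvate either becomes lactate through lactate dehydrogenase or enters mitochondria, where pyruvate dehydrogenase kinases switch off its oxidation. Healthy hepatocytes release glucose through the reverse path, gluconeogenesis, while hepatoma cells often carry the hexokinase and pyruvate kinase forms of proliferating tissue in place of the liver forms. Hypoxia-inducible factors are known to raise many of the genes listed here.

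The labelled cell type was checked against its markers. All 11 hepatocyte markers reached 1 CPM (the count of a gene relative to the scaled total of its sample) in at least 1 sample, and their summed level lay between 24035 and 24175 CPM in untreated cells, 15251 and 18346 in GO, 18673 and 22321 in GO–Rg3, and 31811 and 37158 in GO–Rg3–DOX. The 3 endothelial markers stayed under 1 CPM in every sample, as did 2 of 3 leukocyte markers and 1 of 4 fibroblast markers. The other leukocyte marker, LYZ, carried the sum of its list, which was 112 to 159 CPM over the 12 samples. The fibroblast sum was 4.55 to 6.46 CPM outside GO–Rg3–DOX and 12.9 to 16.3 CPM in it. Counts per sample ranged from 27802871 to 38877420. The share of counts on mitochondrially encoded genes was 5.31% to 6.28% in untreated cells, 12.1% to 24.1% in GO, 6.89% to 7.42% in GO–Rg3 and 12.8% to 19.4% in GO–Rg3–DOX. The highest value in GO belonged to replicate 1, which stood apart from the other two GO samples. GO–Rg3–DOX replicate 1, with 19.4%, stood apart from its group in the same way. In bulk RNA, fewer cells and less RNA per cell cannot be told apart.

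Promoters are shown for 5 members, because the largest changes described below were seen in some of them and not in others. They are the 250 bases before an annotated transcript start (RefSeq, GRCh38.p14), written 5′ to 3′ on the strand of the gene. Capitals mark ACGTG or its reverse complement CACGT, a form of the core that hypoxia-inducible factors bind and part of the E-box CACGTG. Sites with GCGTG in place of ACGTG were not marked or counted.
PFKFB4, chr3:48556804-48557053, minus strand: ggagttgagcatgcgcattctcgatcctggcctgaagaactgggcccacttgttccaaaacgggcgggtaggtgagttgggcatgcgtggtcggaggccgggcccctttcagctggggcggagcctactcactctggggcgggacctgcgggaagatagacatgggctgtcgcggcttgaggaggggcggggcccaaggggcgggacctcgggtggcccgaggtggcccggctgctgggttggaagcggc
ENO2, chr12:6914330-6914579, plus strand: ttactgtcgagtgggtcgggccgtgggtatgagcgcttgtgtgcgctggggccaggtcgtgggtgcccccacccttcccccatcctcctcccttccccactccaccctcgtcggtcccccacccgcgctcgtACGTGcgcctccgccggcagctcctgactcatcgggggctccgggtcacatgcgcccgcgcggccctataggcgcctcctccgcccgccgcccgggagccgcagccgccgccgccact
PDK1, chr2:172555840-172556089, plus strand: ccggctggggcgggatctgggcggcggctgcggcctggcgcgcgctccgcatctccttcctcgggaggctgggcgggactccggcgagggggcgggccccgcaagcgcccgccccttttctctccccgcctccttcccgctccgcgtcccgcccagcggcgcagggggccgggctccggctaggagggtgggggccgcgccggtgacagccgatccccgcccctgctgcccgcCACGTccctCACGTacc
LDHA, chr11:18394313-18394562, plus strand: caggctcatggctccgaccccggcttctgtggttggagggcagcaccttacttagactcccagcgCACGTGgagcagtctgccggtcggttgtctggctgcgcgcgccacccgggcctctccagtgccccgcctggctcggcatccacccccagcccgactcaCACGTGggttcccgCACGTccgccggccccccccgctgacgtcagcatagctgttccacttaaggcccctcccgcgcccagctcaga
PGK1, chrX:78103998-78104247, plus strand: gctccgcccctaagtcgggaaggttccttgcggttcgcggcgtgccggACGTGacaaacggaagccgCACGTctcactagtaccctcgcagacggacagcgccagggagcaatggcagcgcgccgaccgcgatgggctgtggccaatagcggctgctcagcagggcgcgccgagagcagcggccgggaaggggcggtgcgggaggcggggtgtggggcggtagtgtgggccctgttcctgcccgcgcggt
The table held windows for 34 of the 38 members, G6PC under its current symbol G6PC1. PFKFB2, PCK1, SLC2A3 and SLC16A1 had no entry. At least 1 window with ACGTG on either strand was found for 20 of these 34 genes, and for 21.7% of the 27305 genes in the table. Members had 2.03 windows per gene and all genes 1.29, and counted by window the letters were present in 25 of 69 member windows and in 18.5% of the 35116 windows. The 27305 genes were not limited to those tested here. The windows shown for LDHA, PGK1, ENO2 and PDK1 held the letters, while a further window of LDHA and one of PDK1 did not. The PFKFB4 window did not, but it held GCGTG, which was not searched for. SLC2A1, the most abundant of the 3 glucose transporters, had neither ACGTG nor CACGT. The match describes letters in a window and says nothing about whether a factor was bound. The members shown were picked with their changes known, and a link between the letters and the changes was not tested.

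In untreated cells, the levels of the 38 genes spanned several orders of magnitude. Levels of different genes are compared here as normalized CPM per kb of transcript, mean ± SD over n = 3 samples. GAPDH, which oxidises glyceraldehyde-3-phosphate, was the highest at 2411 ± 33.1, followed by the enolase ENO1 at 1479 ± 22.7. TPI1 (841 ± 2.52), PKM (780.2 ± 15.6), ALDOA (726 ± 27.5) and LDHA (595 ± 5.51) came next, and the ranges of these neighbours did not overlap. PGAM1 stood at 175 ± 1.88. PGK1 and GPI, at 72.9 ± 0.947 and 72.3 ± 1.76, did not differ beyond their spread. The abundant genes of lower glycolysis thus lay far above the transporters and kinases that feed the pathway, as SLC2A1 stood at 18.1 ± 1.11 and HK2 at 13.5 ± 0.107.

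**Figure D1:**
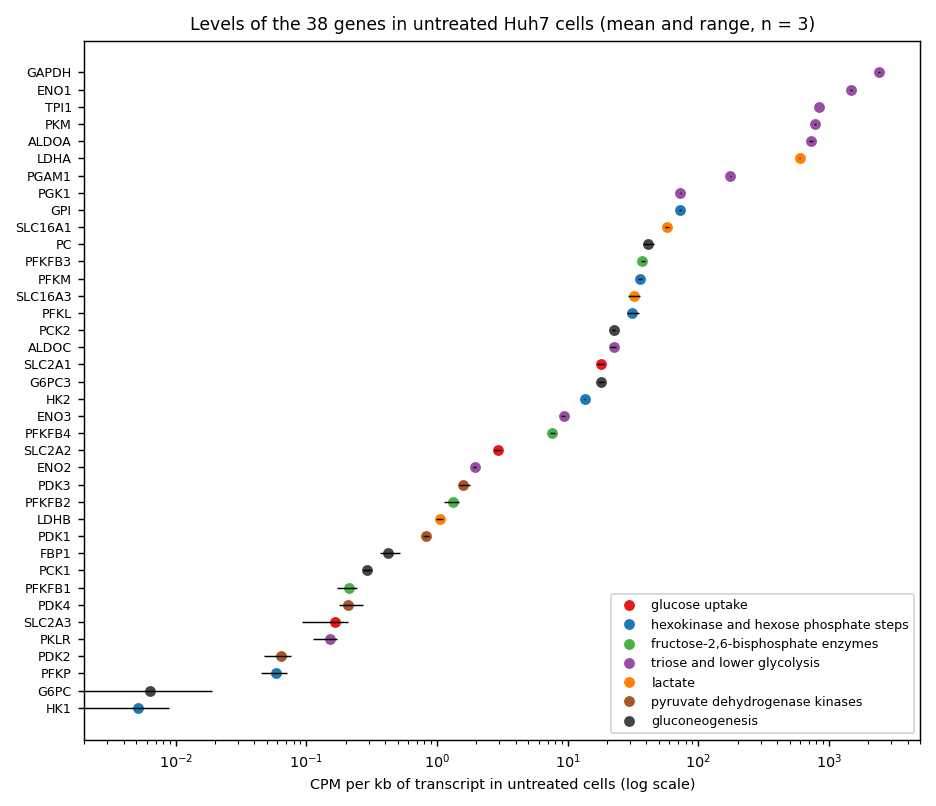
Levels of the 38 genes in untreated Huh7 cells. Each point is the mean of 3 samples in normalized CPM per kb of transcript on a log axis, the line runs from the lowest to the highest sample (a sample at 0 runs off the left edge), and colours give the step. GAPDH and ENO1 lie at the top, and G6PC and HK1 at the bottom.

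Liver forms differed in abundance. The liver-type phosphofructokinase PFKL stood at 31.3 ± 3.23 CPM per kb, close to PFKM at 36 ± 1.49, and their ranges overlapped. The liver pyruvate kinase PKLR stood at 0.15 ± 0.0324 CPM per kb, and PKM made up 99.98% ± 0.00445 of the pyruvate kinase level. HK2 supplied 99.96% ± 0.0343 of the level of the HK1 and HK2 pair, and HK1 had 0 or 1 count in each untreated sample. G6PC, the glucose-6-phosphatase that lets hepatocytes release glucose, had 0 to 3 counts in every one of the 12 samples, while its widely expressed relative G6PC3 stood at 18.0 ± 1.03 CPM per kb. For phosphoenolpyruvate carboxykinase, the mitochondrial form PCK2 (22.5 ± 0.602) lay above the cytosolic form PCK1 (0.292 ± 0.0191). The lactate exporters SLC16A1 and SLC16A3 stood at 57.1 ± 2.32 and 32.4 ± 3.30.

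Treatments were compared with untreated cells by edgeR's quasi-likelihood test. A gene passed at an adjusted p below 0.01 and was called when its absolute log2 fold change also exceeded 1. In the test across all 4 groups, 32 of the 36 tested members passed, and 69% of all genes tested did.

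After GO at 400 µg/mL, members of each of the 7 steps rose, while the middle enzymes TPI1, GAPDH, PGK1 and PGAM1 did not pass. Of 36 members, 18 rose and 1 fell, whereas 12.1% of all genes rose and 15.4% fell. At an unadjusted p under 0.05, 24 members were higher and 2 were lower by edgeR. Of all 17092 genes tested, 8670 lay under that value. 8 members were called, all higher, against 6.47% of all genes called in either direction. These were SLC2A1, HK2, PFKFB4, ALDOC, ENO2, SLC16A3, PDK1 and PCK1. The median log2 fold change was 0.58 over the members and 0.01 over all genes.

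The steepest rise was that of PFKFB4, a bifunctional enzyme that sets fructose-2,6-bisphosphate (ENSG00000114268, GRCh37 chr3:48555117-48599448). Its levels were 26.3, 28 and 25.6 CPM in the untreated samples and 189, 187 and 185 CPM in the GO samples. The groups were far apart and the GO samples nearly identical, with a log2 fold change of 2.81 ± 0.11 (SE, adjusted p = 4.66e-10). PFKFB3, the form with the highest kinase activity, is the most abundant of the 4 genes per kb and moved less. It went from 165, 162 and 175 CPM to 236, 261 and 263 CPM (log2 fold change 0.60 ± 0.09, adjusted p = 0.000173). PFKFB1 and PFKFB2 did not pass.

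ENO2, the enolase named for neurons, rose from a low level (ENSG00000111674, chr12:7022909-7032861). It measured 4.5, 4.32 and 4.57 CPM in untreated cells and 33.4, 23.5 and 25.1 CPM after GO, with replicate 1 the highest. The log2 fold change was 2.61 ± 0.18 (adjusted p = 1.69e-07). ENO1, the main enolase, rose as well, from 2588 to 2659 CPM to between 3790 and 4875 CPM (0.66 ± 0.14, adjusted p = 0.00151). Among the other genes of lower glycolysis, the aldolase ALDOC roughly doubled without overlap (34.1 to 37.8 CPM and 75.3 to 77.5 CPM, log2 fold change 1.08 ± 0.09, adjusted p = 6.62e-07). ALDOA (0.68 ± 0.16) and PKM (0.51 ± 0.12) also passed. TPI1, GAPDH, PGK1, PGAM1, ENO3 and PKLR did not, and their log2 fold changes lay between -0.05 and 0.48. PGK1 measured 345, 353 and 353 CPM in untreated cells and 317, 370.2 and 329 CPM after GO, so that the groups overlapped. They overlapped for ENO3 and PKLR too. For TPI1, GAPDH and PGAM1 every GO sample lay above every untreated sample. GAPDH measured 3052 to 3135 CPM in untreated cells and 3768 to 4493 CPM after GO.

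At the entry of the pathway, SLC2A1, the basal glucose transporter GLUT1, more than tripled (ENSG00000117394, chr1:43391024-43424564). Its samples stood at 64.4, 57.1 and 61.9 CPM before and 213, 201 and 216 CPM after GO (log2 fold change 1.78 ± 0.12, adjusted p = 1.06e-07). SLC2A2, the liver transporter GLUT2, was the 1 member that fell. Its levels were 9.68, 9.78 and 8.62 CPM in untreated and 3.37, 5.75 and 5.89 CPM in GO samples, lowest in GO replicate 1 (log2 fold change -0.89 ± 0.18, adjusted p = 0.00126). HK2, the inducible hexokinase that traps glucose in the cell, rose from 76.6, 75.5 and 75.6 CPM to 192, 207 and 206 CPM (1.41 ± 0.08, adjusted p = 1.94e-08). GPI (0.92 ± 0.15) and the liver-type phosphofructokinase PFKL (0.82 ± 0.19) rose less steeply, and PFKM, PFKP and SLC2A3 did not pass. HK1 had 4, 8 and 10 counts in the GO samples, under the filter.

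On the fate of pyruvate, PDK1 and SLC16A3 moved most. PDK1, a kinase that inactivates pyruvate dehydrogenase (ENSG00000152256, chr2:173420101-173473397), measured 11.1, 12.2 and 11.1 CPM in untreated cells and 37.1, 57.1 and 54.4 CPM after GO. GO replicate 1 was the lowest of its group but still above every untreated sample (log2 fold change 2.11 ± 0.15, adjusted p = 1.74e-07). PDK3 rose by a smaller margin (0.74 ± 0.16), and PDK2 and PDK4, both near or under 1 CPM, did not pass. SLC16A3, the lactate exporter MCT4 of glycolytic cells, stood at 92.3, 75.2 and 85.0 CPM and then at 258, 204 and 231 CPM (1.46 ± 0.21, adjusted p = 9.08e-05). LDHA, the subunit that favours lactate formation, rose from 1325 to 1348 CPM to between 1689 and 1976 CPM (0.46 ± 0.10, adjusted p = 0.00165). LDHB and the exporter SLC16A1 did not pass.

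Of the 5 tested gluconeogenic genes, 3 rose and none fell. PCK1, the cytosolic and hormone-controlled form of the enzyme that commits carbon to glucose, was low throughout but rose, from 1.27, 1.34 and 1.18 CPM to 2.70, 3.72 and 3.62 CPM (log2 fold change 1.42 ± 0.18, adjusted p = 3.49e-05). PCK2 (0.56 ± 0.12) and G6PC3 (0.86 ± 0.15) rose too. FBP1, which reverses the phosphofructokinase step, and the pyruvate carboxylase PC did not pass.

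The 8 called members and SLC2A2, PFKFB3, GPI, ENO1 and G6PC3 passed whichever sample was left out. PFKL, ALDOA, PKM, LDHA, PDK3 and PCK2 each no longer passed in at least 1 such fit, with an adjusted p of at most 0.0201. Without untreated replicate 1 the losses were PKM, ALDOA and PDK3, and without untreated replicate 2 LDHA, PCK2, PKM, ALDOA and PFKL. Without untreated replicate 3 they were LDHA, PKM, ALDOA, PFKL and PDK3, without GO replicate 1 PKM, ALDOA and PFKL, and without GO replicate 3 PFKL. GC content moved with the result: over 16622 genes the rank correlation of log2 fold change and GC content of the transcript was 0.44, and the median GC content was 54% for the tested members and 48.1% for all genes. With an offset for GC content, 18 members passed as higher and 2 as lower, and PKM no longer passed. Without the mitochondrially encoded genes the counts were 18 and 1.

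**Figure D2:**
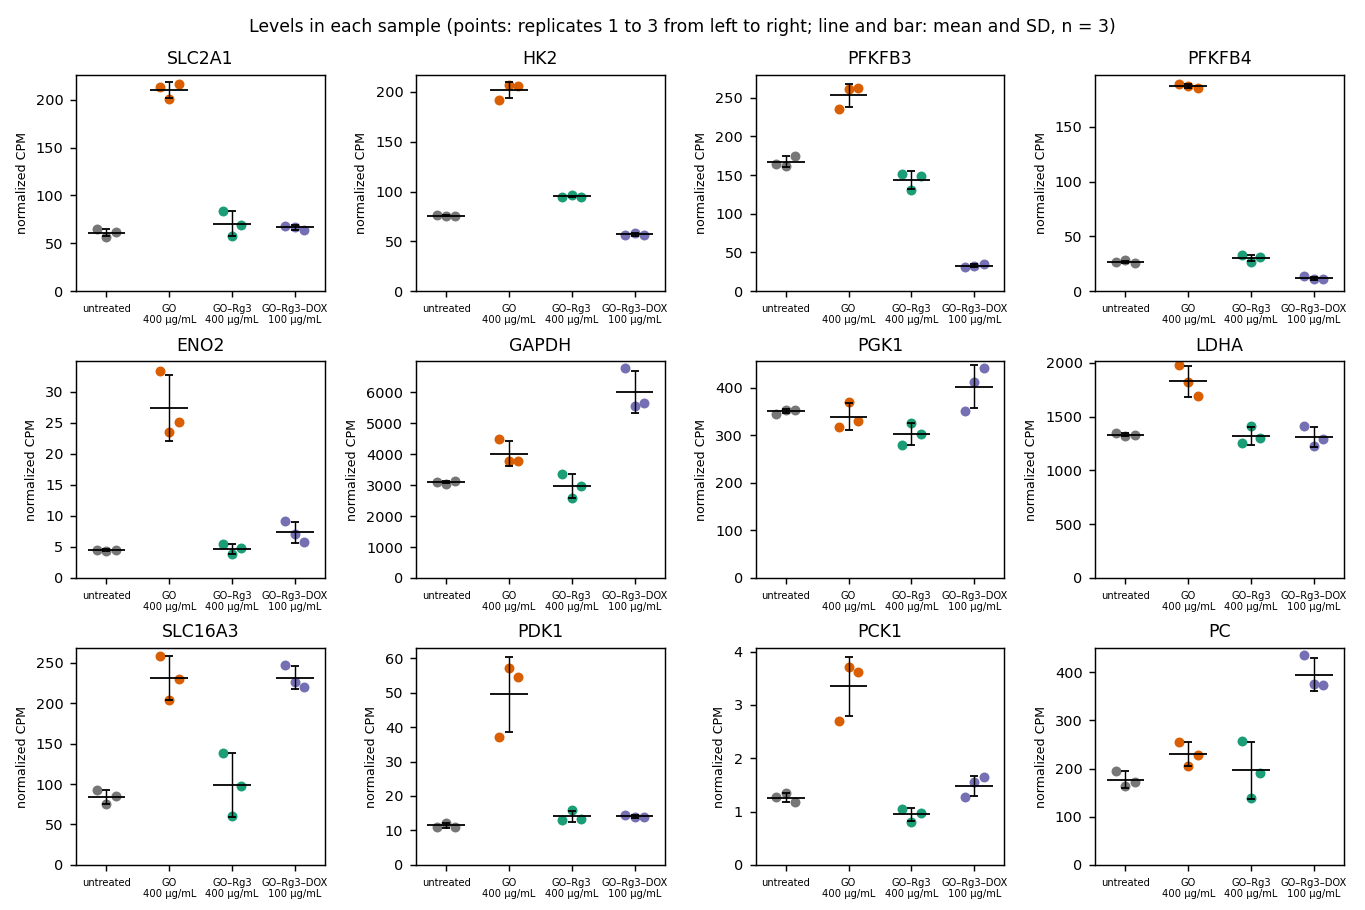
Normalized CPM of 12 members in each of the 12 samples. Points are replicates 1 to 3, the horizontal line is the mean and the bar the SD of n = 3, and each axis starts at 0. For PFKFB4, SLC2A1, HK2 and PDK1 the 3 GO samples lie above all others, PFKFB3 is lowest in the GO–Rg3–DOX samples, and the PGK1 samples of untreated and GO cells overlap.

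With Rg3 on the carrier, at the same dose and time, no member passed against untreated cells in either direction. Of all genes, 0.0585% passed as higher, 0.105% as lower, and 0.0585% were called. By edgeR, 2 of 36 members had an unadjusted p under 0.05, and 2291 of all 17092 genes tested did. By DESeq2, 1 passed as higher, HK2. The median log2 fold change was 0.03 for the members and 0.00 for all genes. Among the 8 members called after GO, the log2 fold changes in GO–Rg3 lay between -0.40 and 0.33, and their 95% intervals between -0.84 and 0.67. PFKFB4 measured 32.6, 27.0 and 31.6 CPM, SLC2A1 83.9, 57.6 and 69.5 CPM, and PDK1 12.9, 16 and 13.4 CPM. HK2 stood at 94.5, 96.2 and 94.5 CPM, above the 3 untreated samples. Sparse genes left wide intervals, and over all 36 members the intervals reached from -1.28 to 1.36.

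The difference between the carriers was tested directly, GO–Rg3 against GO. The paper attached Rg3 with sulfuric acid and heat, and reports larger, thicker flakes with less negative charge. No group received acid-treated GO or free Rg3, so Rg3 itself and these changes cannot be told apart. Below, "with Rg3" names the conjugated carrier. The GO samples in it are those already described, so its values are not independent of the comparison of GO with untreated cells. Of 36 members, 15 were lower with Rg3 and none was higher, while 6.25% of all genes were lower and 7.33% higher. At an unadjusted p under 0.05, 24 were lower and 1 was higher by edgeR, and 6796 of all 17092 genes tested lay under that value. DESeq2 gave 0 members higher past the adjusted threshold. 8 members were called, all lower, against 2.77% of all genes in either direction. The median log2 fold change was -0.58, beside -0.02 for all genes.

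PFKFB4 differed most. It was lower by a log2 fold change of -2.62 ± 0.11 (adjusted p = 8.70e-10) and PFKFB3, at 151, 131 and 149 CPM with Rg3, by -0.82 ± 0.09. ENO2 measured 5.43, 3.79 and 4.89 CPM with Rg3, which lay under every GO sample (-2.53 ± 0.18, adjusted p = 3.60e-07). For pyruvate and glucose entry, PDK1 (-1.82 ± 0.15), SLC2A1 (-1.58 ± 0.12), SLC16A3 (-1.22 ± 0.21) and HK2 (-1.08 ± 0.08) were lower. PCK1, at 1.05, 0.804 and 0.978 CPM with Rg3, differed by -1.82 ± 0.19 (adjusted p = 1.36e-05) and ALDOC by -1.11 ± 0.09. The smaller differences were those of GPI, ENO1, LDHA, PDK3, G6PC3 and PCK2, from -0.77 to -0.47.

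Those 6 passed with all samples but not with every sample left out. Without GO replicate 1 ENO1, G6PC3 and GPI no longer passed, without GO replicate 3 ENO1, PCK2, G6PC3 and PDK3, and without GO–Rg3 replicate 1 PDK3. Without GO–Rg3 replicate 2 the losses were ENO1, PCK2, G6PC3 and GPI, and without GO–Rg3 replicate 3 all 6, which left 9 members lower. Adjusted p in these fits was at most 0.0347. When only the 6 samples compared were fitted, these 6 and SLC16A3, which is one of the 8 called members, did not pass (SLC16A3 adjusted p = 0.0147), which left 8 members lower. GO–Rg3 replicate 2 was the lowest of its group for PFKL (144, 64.4 and 104 CPM) and PC (258, 139 and 192 CPM). Over all genes the rank correlation of log2 fold change with GC content was -0.44, and with a GC offset 13 members were lower.

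After GO–Rg3–DOX at 100 µg/mL the enzymes of lower glycolysis were higher and the PFKFB3 and PFKFB4 kinases lower. Of 36 members, 21 rose and 3 fell, while 25.5% of all genes rose and 30.5% fell. The 13 called members, 11 higher and 2 lower, were a share close to the 30.8% of all genes called. The median log2 fold change was 0.88 over the members and -0.06 over all genes.

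**Figure D3:**
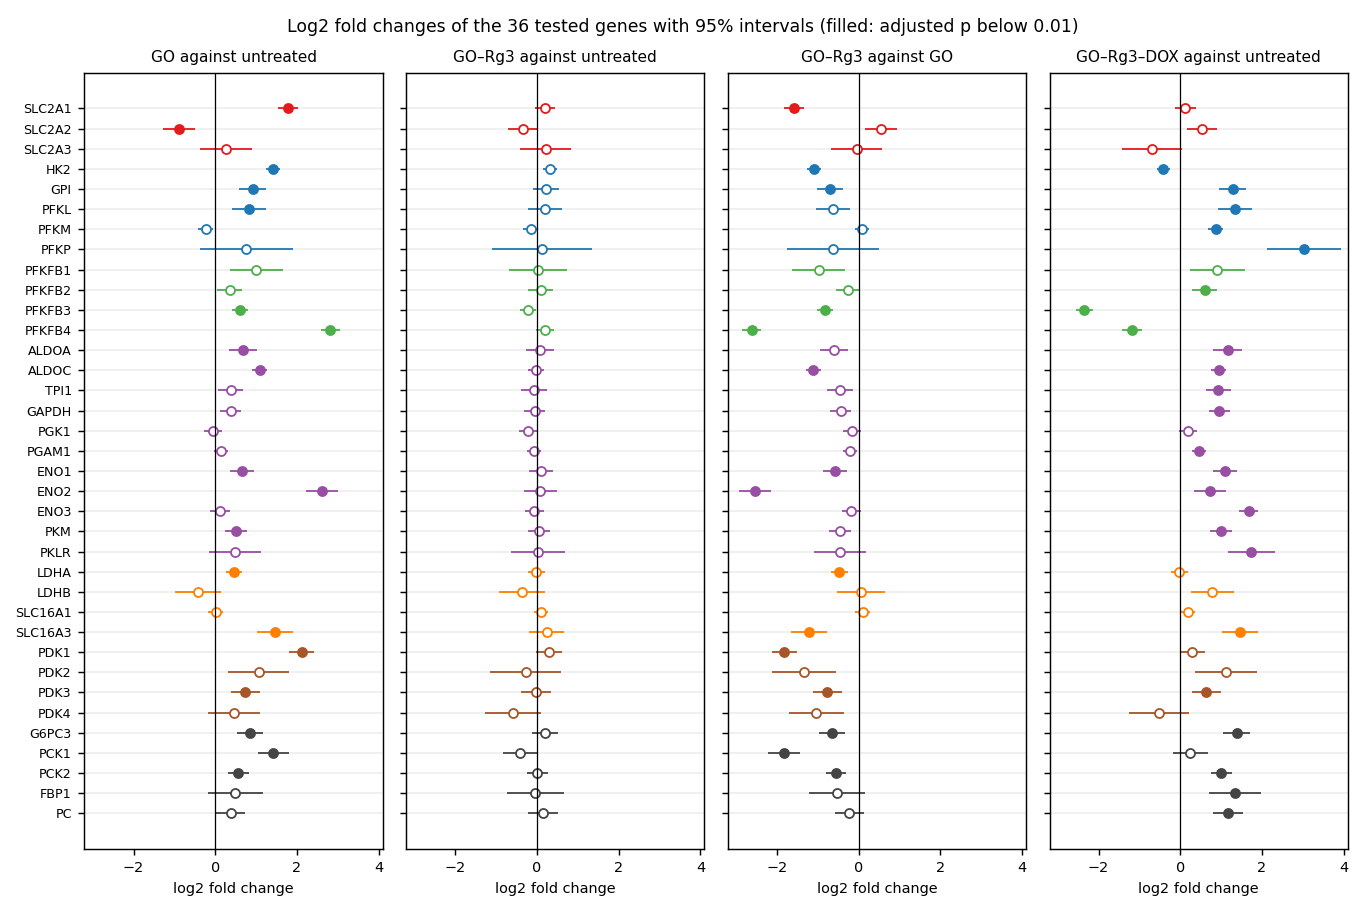
Log2 fold changes of the 36 tested members in 4 comparisons. Points are estimates, lines 95% intervals, filled points passed at an adjusted p below 0.01, and colours give the step as in the plot of untreated levels. In GO–Rg3 against untreated cells no point is filled, and after GO–Rg3–DOX the members of triose and lower glycolysis lie to the right of 0 while PFKFB3 and PFKFB4 lie to the left.

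PFKFB3 (ENSG00000170525, chr10:6186897-6296607) fell furthest. Its 30.7, 32.7 and 35.3 CPM lay far below the untreated 165, 162 and 175 CPM (log2 fold change -2.35 ± 0.10, adjusted p = 1.06e-10). PFKFB4 fell to 13.5, 10.9 and 10.8 CPM (-1.19 ± 0.11, adjusted p = 2.03e-07). PFKFB2, the heart form, rose slightly from 7.94 to 10.4 CPM to between 13.2 and 14.7 CPM (0.59 ± 0.14) and did not pass without untreated replicate 1 (adjusted p = 0.0130). HK2 was lower too, at 56.3, 58.2 and 56.3 CPM (-0.41 ± 0.08, adjusted p = 0.000266). Its value ranged from -0.83 to -0.11 over the other settings, and with an offset for transcript length it did not pass (adjusted p = 0.214). The values given above for PFKFB3, PFKFB4 and HK2 after GO were positive, and both comparisons share the untreated samples.

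Of the 11 genes of triose and lower glycolysis, 10 rose and PGK1 did not pass. The abundant enzymes moved by similar amounts. GAPDH went from 3109, 3052 and 3135 CPM to 6789, 5564 and 5656 CPM (log2 fold change 0.95 ± 0.12, adjusted p = 5.57e-06). GO–Rg3–DOX replicate 1 was the highest of its group for GAPDH, ENO1, ALDOA, PKM, TPI1, GPI and G6PC3, but not for PGAM1 or PGK1. Without this replicate 19 members were higher and 3 lower. ENO1 (1.09 ± 0.14), ALDOA (1.15 ± 0.16), PKM (0.99 ± 0.12), TPI1 (0.93 ± 0.15) and ALDOC (0.94 ± 0.09) were near GAPDH in log2 fold change, and PGAM1 (0.46 ± 0.08) and ENO2 (0.72 ± 0.19) lower. ENO3, the muscle enolase, tripled without overlap, from 12.9, 13.9 and 13.8 CPM to 44.7, 43.6 and 41.2 CPM (1.67 ± 0.11, adjusted p = 6.39e-09). PKLR, the liver pyruvate kinase, rose from 0.344, 0.511 and 0.518 CPM to 1.44, 1.37 and 1.79 CPM (1.74 ± 0.27, adjusted p = 3.62e-05). PGK1 measured 352, 412 and 440.5 CPM, the first of which lay within the untreated range.

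All 5 tested genes of the hexose phosphate steps passed. PFKP, the platelet phosphofructokinase, had the highest log2 fold change of all members (3.03 ± 0.42, adjusted p = 1.27e-05) at very low levels, 0.185, 0.160 and 0.118 CPM in untreated cells and 0.783, 1.65 and 1.37 CPM after treatment. Those were 5 to 7 counts per untreated sample and 19 to 46 counts per treated sample. The abundant forms PFKL, at 230.0, 231 and 226 CPM (1.33 ± 0.20), and PFKM, at 201, 199 and 207 CPM (0.86 ± 0.08), rose with no overlap with untreated cells. GPI rose by 1.28 ± 0.15. None of the 3 glucose transporters passed: SLC2A1 stood at 68.6, 67.5 and 63.7 CPM.

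The lactate genes split. SLC16A3 rose to 247, 227 and 221 CPM (log2 fold change 1.46 ± 0.21, adjusted p = 1.72e-05), while LDHA at 1411, 1227 and 1289 CPM, LDHB and SLC16A1 did not pass. Of the pyruvate dehydrogenase kinases PDK3 passed (0.63 ± 0.17), and PDK1 at 14.5, 13.8 and 14.0 CPM did not. In gluconeogenesis, PC, which makes oxaloacetate from pyruvate, rose from 196, 163 and 173 CPM to 435, 377 and 374 CPM (1.16 ± 0.17, adjusted p = 2.43e-05). G6PC3 (1.37 ± 0.15), PCK2 (1.0 ± 0.12) and FBP1 (1.34 ± 0.30) rose as well. FBP1 remained scarce, at 1.73, 1.80 and 1.18 CPM, and PCK1 did not pass.

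With 1 sample left out, PFKFB2, ENO2 and PDK3 did not pass in at least 1 fit (adjusted p at most 0.0209). These were all 3 without untreated replicate 1, ENO2 without untreated replicate 2, PDK3 without untreated replicate 3, ENO2 and PDK3 without GO–Rg3–DOX replicate 1, and PDK3 without GO–Rg3–DOX replicate 3. Scaling by library totals alone moved the median of all genes to -0.47, and 17 members were then higher and 4 lower. PFKFB2, PGAM1, ENO2 and PDK3 no longer passed with that scaling (edgeR adjusted p from 0.115 to 0.683). The rank correlation of log2 fold change with GC content was 0.37 over all genes, and with a GC offset 27 members were higher and 3 lower. The summed level of the hepatocyte markers was higher after GO–Rg3–DOX as well, and its part in the result was not tested. If strand was not used in counting, reads in bases shared with genes on the opposite strand could be included or dropped. Such bases made up 38.6% of the exon bases of PDK2, 23.9% of G6PC3, 17.6% of GAPDH and PKLR, 14.8% of FBP1 and 11.3% of ALDOC.

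The makeup of the isoform families, as shares of the summed CPM per kb, differed between groups. Among the PFKFB genes, PFKFB3 held 80.3% ± 1.25 and PFKFB4 16.4% ± 1.11 in untreated cells. After GO they were near parity, at 50.4% ± 1.61 and 47.7% ± 1.78, and with GO–Rg3 they stood at 75.6% ± 0.224 and 20.5% ± 0.488. After GO–Rg3–DOX, PFKFB2 made up 15.2% ± 0.870, against 2.84% ± 0.376 in untreated cells, as the other two forms fell. PFKL held 46.4% ± 3.51 of the phosphofructokinase level in untreated cells and 64.2% ± 2.95 after GO. It ranged from 40.3% to 60.1% in the GO–Rg3 samples, from below the lowest untreated sample to just under the lowest GO sample. SLC2A1 held 85.3% ± 1.05 of the summed level of SLC2A1, SLC2A2 and SLC2A3 in untreated cells and 97.2% ± 0.764 after GO. Other SLC2A genes that were tested are not in that sum. These shares were not tested.

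**Figure D4:**
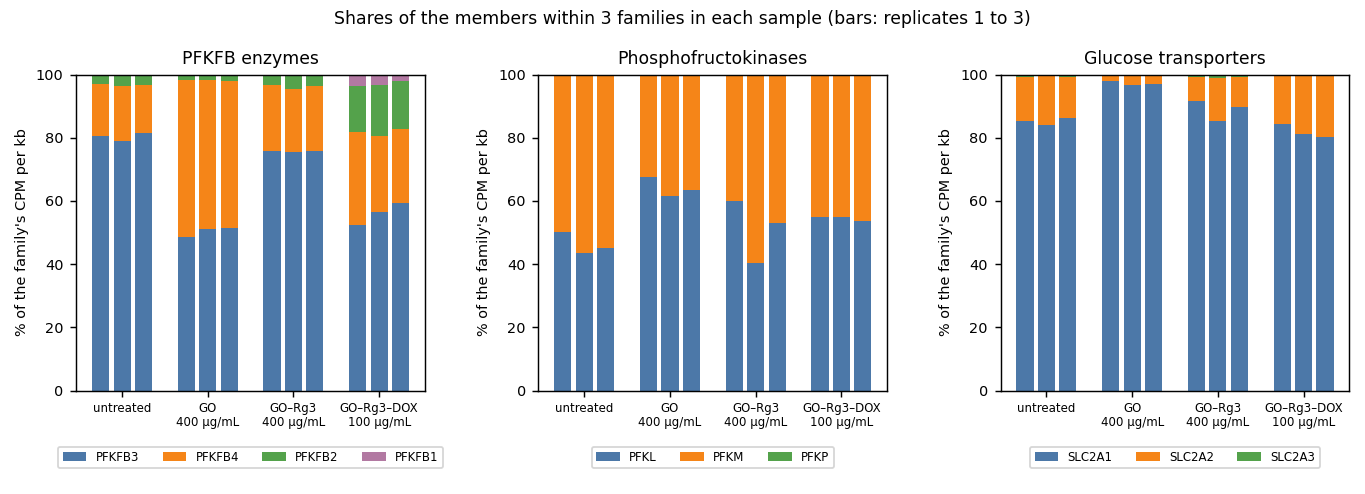
Shares of each member in the summed CPM per kb of the listed members of its family, in percent, for the PFKFB enzymes, the phosphofructokinases and the glucose transporters. Each bar is 1 sample, replicates 1 to 3 within each group. PFKFB4 fills close to the same share as PFKFB3 in the GO samples, and PFKFB2 is widest in the GO–Rg3–DOX samples.

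Genes of neighbouring pathways are given as counts, to be read against the shares of all genes, 12.1% higher and 15.4% lower after GO and 25.5% higher and 30.5% lower after GO–Rg3–DOX. Of 9 genes that carry pyruvate to acetyl-CoA, none rose and 5 fell after GO, and 1 rose and 4 fell after GO–Rg3–DOX. The latter included both pyruvate dehydrogenase phosphatases, which undo the action of the PDK enzymes, PDP1 (log2 fold change -1.38 ± 0.17) and PDP2 (-2.67 ± 0.34). Of the 8 genes of the pentose phosphate pathway, which draws on glucose-6-phosphate, 1 rose and 1 fell after GO, and 7 rose and 1 fell after GO–Rg3–DOX. Among 15 tested glycogen genes, 4 rose and 2 fell after GO, with the glycogen synthase GYS1 called (1.55 ± 0.15), and 8 rose after GO–Rg3–DOX. Of the 15 tested regulators, 5 rose and 3 fell after GO and 1 rose and 10 fell after GO–Rg3–DOX. TXNIP, which restrains glucose uptake, stood at 20.2, 20.9 and 19.4 CPM in untreated cells and at 64.6, 71.7 and 68.9 CPM after GO (1.76 ± 0.13, adjusted p = 2.18e-07). With GO–Rg3 it measured 16.6, 22.2 and 20.7 CPM. FOXO3 (1.42 ± 0.11) and PPARGC1A (1.57 ± 0.37) were also called after GO. After GO–Rg3–DOX the called falls were those of MYC (-1.62 ± 0.14), MLX (-1.01 ± 0.09), FOXO1 (-2.09 ± 0.20), CREB1 (-1.91 ± 0.16), HNF4A (-1.02 ± 0.12) and PPARGC1A, which was at 0 in the 3 samples, and MLXIPL rose (1.52 ± 0.27). HIF1A, which encodes a hypoxia-inducible factor, was not called and is named after its values were seen. It fell after GO (-0.84 ± 0.13, adjusted p = 0.000179) and after GO–Rg3–DOX (-0.59 ± 0.13, adjusted p = 0.000895). These HIF1A values are mRNA levels, and the protein and its activity were not measured. Of 15 tested further isoforms, 4 rose and 1 fell after GO, and 5 rose and 2 fell after GO–Rg3–DOX. In GO–Rg3 against untreated cells, no gene of these 5 lists passed.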

How the data were processed

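RNA of 12 Huh7 samples, 3 per group, was analysed from the raw counts per gene that the authors deposited. Per the labels and methods they prepared stranded mRNA libraries, used GRCh37 and counted reads with featureCounts; the annotation release and strand setting are not given in the sources used here. Groups and replicate numbers came from the sample labels.

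The filter kept genes that reached 10 counts in 3 or more samples. Counts were scaled by TMM and tested with the quasi-likelihood test of edgeR 4.0.16 (R 4.3.3), all 12 samples in one fit without a block, and adjusted by Benjamini-Hochberg over all 17092 genes. A gene passed at an adjusted p below 0.01 and was called at an absolute log2 fold change above 1. Fold changes used a prior count of 0.125. Levels are TMM-normalized CPM, divided by transcript length (GENCODE lifted to GRCh37) where genes are compared. Counts per sample were 27802871 to 38877420.

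The members and lists were chosen with earlier results of these data known. A log2 fold change is given for a member where it passed, and a gene of another list is named where it was called. Alternatives were RLE scaling, library totals, no mitochondrially encoded genes, other filters, DESeq2 1.42.0, offsets for GC content or length, a replicate block, fits of the 6 compared samples alone, fits that drop 1 sample, and thresholds of 0.05 and 1e-04. The fit was tested on simulated data. Tables used Python 3.11.15. Free DOX was not analysed here.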

Additional observations from a re-analysis of the deposited data

How the results depend on the processing

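Over 58 member comparisons that passed, no alternative that was run reversed the direction. The adjusted p no longer passed in 43 of 348 values with 1 sample left out and in 50 of 811 under other settings. The 811 include the thresholds of 0.05 and 1e-04, which were applied to the same fit of all 12 samples. Those values could not reverse, and at 0.05 none could be lost. The number of members higher after GO lay between 13 and 18 with 1 sample left out and was 8 at an adjusted p below 1e-04, and the number lower was 2 with the GC offset, 2 with the GC offset and replicate block, 2 at 0.05 and 0 at 1e-04. Its median log2 fold change was 0.458 with library totals, 0.461 with the GC offset, 0.460 with the GC offset and block, and 0.532 to 0.674 with 1 sample left out. For GO–Rg3 against untreated cells, 1 member was higher with the GC offset, with the GC offset and block, and with DESeq2, and the median ran from -0.0798 to 0.0912 with 1 sample left out, negative without GO–Rg3 replicate 1. After GO–Rg3–DOX the median was 0.951 with RLE scaling, 0.462 with library totals, 0.800 without a filter, 0.762 with the GC offset (0.760 with block), 0.830 with the length offset (0.827 with block), 0.956 with DESeq2, and 0.776 to 0.946 with 1 sample left out. In GO–Rg3 against GO, 1 member was higher without a filter, with the length offset and block, and at 0.05. The number lower was 8 with only the 6 samples compared, 23 at 0.05, 8 at 1e-04, and 9 to 19 with 1 sample left out. Its median was -0.424 with library totals, -0.366 with the GC offset (-0.365 with block), and -0.692 to -0.456 with 1 sample left out. Library totals moved the median of all genes to -0.11 for GO, -0.47 for GO–Rg3–DOX and 0.12 for GO–Rg3 against GO, and the members' medians shifted in the same direction. The cause of the other shifts was not tested.

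The labels give the groups the same replicate numbers without saying what they stand for. Deviations of same-numbered samples from their group means correlated by 0.0914 on average, from -0.0239 to 0.253. Those of samples with other numbers correlated by -0.0451 on average, from -0.257 to 0.212. Deviations within a group sum to 0, so the second average largely follows from the first and is no separate check. The numbers were not taken as pairs, and a shared origin of same-numbered samples was not excluded. With the replicate block, 19 members were higher and 1 lower after GO, none passed in GO–Rg3, 23 were higher and 3 lower after GO–Rg3–DOX, and 20 were lower in GO–Rg3 against GO. Depth limits HK1, G6PC, PFKP and PKLR, whose levels rest on few counts.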
